A study of Mus musculus with 6 samples.

Results

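The DNA replication and mitosis genes followed here are 41 genes, 23 that act in the copying of DNA and 18 that act in mitosis, chosen by their symbols out of the 23282 gene rows of the deposited tables, which write symbols in capitals. Every one of the 41 symbols was found on a single row. RNA came from a murine astrocyte line given as Ink4a-/- in the labels and as Ink4a/Arf-/- in the study's text, labelled as brain tissue, and was turned into libraries by QuantSeq, a method that reads the 3′ end of polyadenylated transcripts. The control group (Con, 3 libraries, genotype WT in the labels) received the empty vector pcDNA3.1-puro by transfection, and the JAG1 group (3 libraries, genotype JAG1 overexpression) received pcDNA3.1-JAG1-puro, which carries JAG1, a ligand of the NOTCH receptors. Both groups therefore shared the loss of Ink4a and Arf, the vector backbone with its puromycin resistance and the same medium, DMEM with fetal bovine serum. The origin of replicate libraries, from separate transfections, clones or cultures or from the same one, is not given in the sources used here, so p-values measure the spread between these libraries, which may be technical. The question put to these genes was whether the transcripts that cells use to copy and divide their chromosomes differed between the control and the JAG1 libraries.

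Cells license their replication origins by loading the MCM helicase, fire them in S phase with CDC45 and GINS, and copy DNA with polymerases that ride on the PCNA clamp. Many genes of this programme are switched on by E2F factors once cyclin and CDK activity has inactivated the retinoblastoma protein, a step that the Ink4a product, an inhibitor of the kinases that pair with D-type cyclins, restrains. Arf, the other product of the same locus, stabilises p53, which halts the cycle. Mitotic genes follow later in the cycle, through CCAAT boxes bound by NF-Y and through cell cycle genes homology regions (CHR), which the DREAM and MYB-MuvB complexes bind. Astrocytes in the adult brain divide rarely, whereas cultured lines that lack Ink4a and Arf divide readily.

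Between 14341634 and 20489062 reads were counted on genes in each library, and a count of 3, taken as the limit of detection, equalled between 0.148 and 0.206 counts per 1e+06 reads (CPM). Levels are given as CPM after TMM scaling, which divides the reads of a gene by a library size adjusted for composition. Since QuantSeq reads transcript ends, this level does not rise with transcript length. JAG1 itself held 182, 201 and 214 reads in the control libraries and 304, 197 and 227 in the JAG1 libraries, or 10.3 ± 1.18 and 14.2 ± 0.862 CPM (mean ± SD, n = 3). By edgeR's quasi-likelihood test this was 0.46 ± 0.11 on the log2 scale (SE, standard error, adjusted p = 0.00446). The sources used here do not say whether transcripts of the JAG1 vector were counted on this row. The value may therefore not measure the overexpression. CDKN2A, the gene of the deleted locus, held between 0 and 5 reads in each library. The libraries are labelled as astrocytes, but the defining astrocyte markers GFAP and AQP4 held no read in any library, which allows at most 0.148 to 0.206 CPM. SLC1A2 and SLC1A3 held at most 2 reads a library. Of the 10 astrocyte markers, 6 passed the filter on low counts and were tested, and all 6 were lower in JAG1. The markers summed to 337 to 398 CPM in control and 123 to 137 CPM in JAG1 libraries for astrocytes, and to 420 to 470.1 and 249 to 290.02 CPM for fibroblasts. Of 5 fibroblast markers 4 were tested, 3 of them lower and 1 higher, and LUM was at 0. Neuron markers summed to 100.3 to 109.9 and 58.6 to 61.7 CPM. Of 6 neuron markers 3 were tested, 2 of them lower and 1 higher, and SNAP25 and SYT1 were at 0. Markers of microglia summed to 3.19 to 4.08 and 1.64 to 2.27 CPM, with 2 of 8 tested, 1 higher and 1 lower. Those of oligodendrocytes summed to 3.45 to 4.56 and 4.13 to 4.80 CPM. Of these 8 only 2 were tested, neither passed, and MOG, SOX10, OLIG1 and CSPG4 were at 0. Those of endothelial cells summed to at most 0.322 CPM, and none of the 5 was tested. Of all 11712 genes tested, 27.4% were higher and 27.7% lower in JAG1 libraries. The part of these markers in the results on replication and mitosis genes was not tested. In bulk RNA, fewer dividing cells and less RNA per dividing cell cannot be told apart.

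The replication and mitosis genes moved in both directions between the groups. Of the 41 genes, 18 were higher and 6 were lower in JAG1 libraries at an adjusted p under 0.05, and 17 did not pass. That is 58.5% of the set beside 55.1% of all 11712 genes tested, of which 27.4% were higher and 27.7% lower. All 41 genes passed the filter on low counts. The JAG1 libraries lay above all control libraries for 20 of the 41 genes and below all of them for 9, beside 31.1% and 30.9% of all genes tested. At a fold limit of 1.5 in addition, 6 of the 41 genes, or 14.6%, remained, beside 26.5% of all genes tested. Those 6 were E2F2, RRM2, KIF11 and AURKB, which were higher, and BUB1 and CENPE, which were lower. The median log2 fold change of the 41 genes was 0.09, beside 0.0039 for all genes tested, and the median size of the change without its sign was 0.23 beside 0.31. Among the 8566 tested genes whose levels lay within the range of the set, the median size was 0.26 and 56.9% were called, or 19.8% with the fold limit of 1.5.

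**Figure D1:**
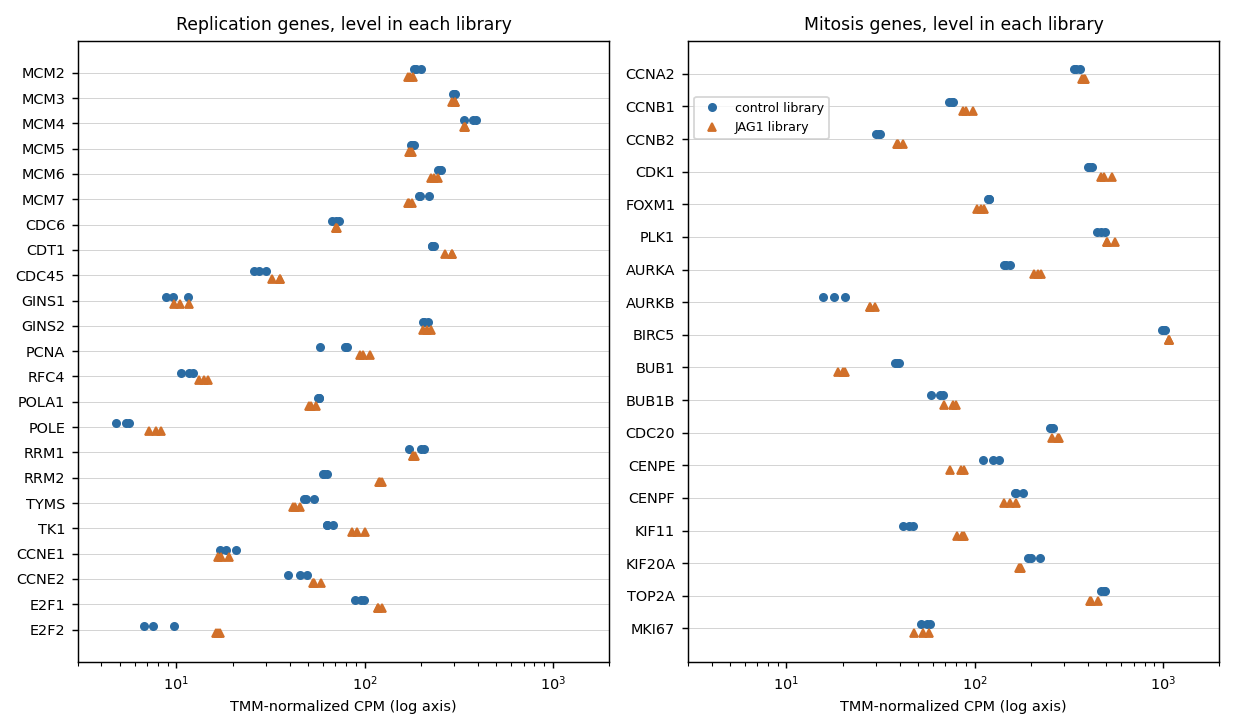
Level of each replication gene (left) and mitosis gene (right) in each library, in TMM-normalized CPM on a log axis, with circles for the 3 control and triangles for the 3 JAG1 libraries. The groups are apart for RRM2, E2F2, KIF11, BUB1 and CENPE and interleave for MCM3, CDC6, GINS1 and MKI67.

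Replication and mitosis genes are described apart. Of the 23 replication genes, 10 were higher and 2 lower, and the median on the log2 scale was 0.04. The number lower was 5 without control replicate 1 and 1 without control replicate 3, JAG1 replicate 1 or JAG1 replicate 3. Of the 18 mitosis genes, 8 were higher and 4 lower, and the median was 0.11. That is 52.2% of the replication and 66.7% of the mitosis genes called, beside 55.1% of all genes tested. Summed over the 23 replication genes, the control libraries held 2677, 2732 and 2759.7 CPM and the JAG1 libraries 2833, 2809 and 2868 CPM. Summed over the 18 mitosis genes, the values were 4131, 4084 and 4005 CPM in control and 4281, 4356 and 4274 CPM in JAG1 libraries. Both sums were thus higher in every JAG1 library, by ratios of 1.04 and 1.06. Abundant transcripts weigh most in such sums, such as BIRC5 and PLK1 in the mitosis sum, whereas the abundant MCM genes summed lower within the replication sum. The ratio of the replication sum to the mitosis sum ran from 0.648 to 0.689 in control and from 0.645 to 0.671 in JAG1 libraries, so the ranges of the groups overlapped. No library stood at the top of its group throughout: JAG1 replicate 3 was the highest of its group for 11 of the 23 replication genes, and no other library was so for more.

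**Figure D2:**
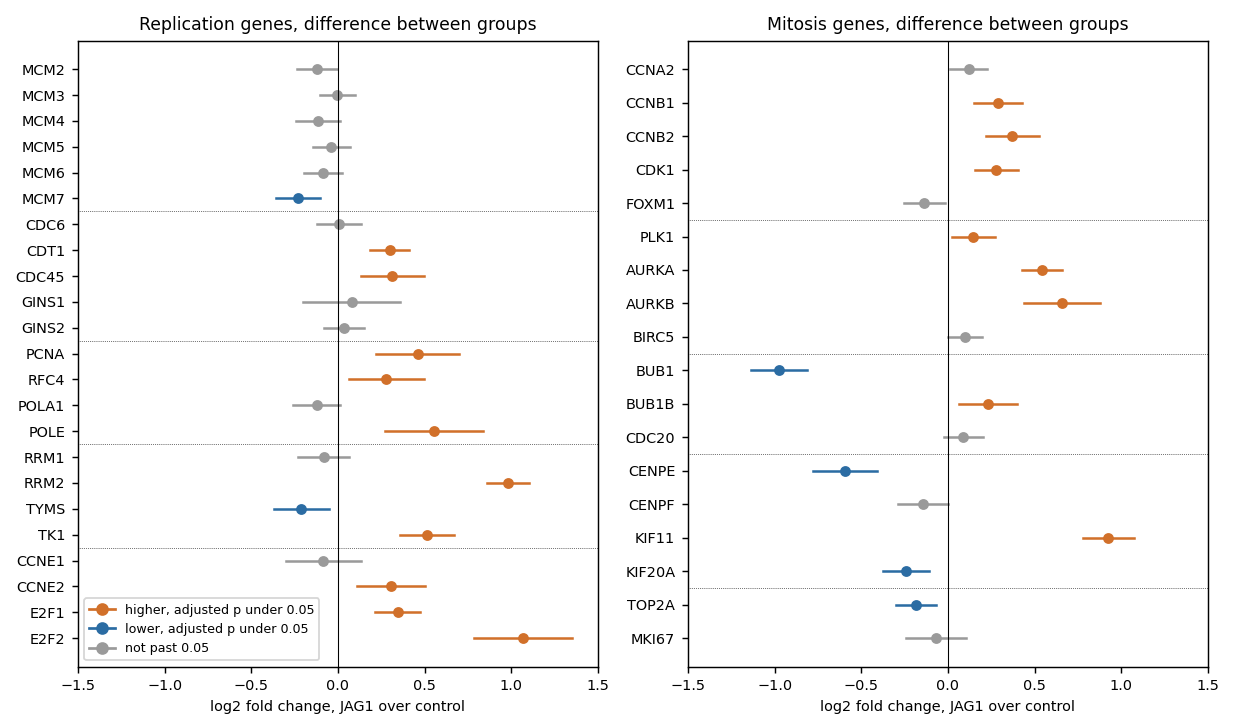
Log2 fold change of each gene, JAG1 over control, with its 95% interval from edgeR's quasi-likelihood fit, for replication genes (left) and mitosis genes (right), with dotted lines between role groups. The intervals of E2F2 (1.07), RRM2 (0.98), KIF11 (0.93) and BUB1 (-0.97) lie farthest from 0, and those of the MCM genes lie close to it.

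Promoters of 7 genes are shown so that letters known to be bound by E2F, NF-Y and the CHR complexes can be read beside the levels. Of the 41 genes, 32 had a promoter in the RefSeq table of the mouse assembly GRCm38.p6, from 250 bases before the start of transcription to 50 after it, 18 of them replication and 14 mitosis genes. The letters searched, on both strands, were TTTCCCGC, TTTGGCGC and TTTCGCGC for E2F, CCAAT for the NF-Y box, and TTTGAA and TTTAAA for CHR. Matches to different letters may overlap, as do the first E2F matches of MCM6. Each window runs from position -120 to 30 around the start, 150 bases on the strand of the gene, 5′ to 3′, and capitals mark the matches. The genes shown are MCM6 for a replication promoter with several E2F matches, RRM2, KIF11, BUB1 and CENPE as genes among the largest changes, and CCNB1 and TOP2A for mitotic promoters with more than 1 CCAAT match.
MCM6 (chr1:128359676-128359825, minus strand): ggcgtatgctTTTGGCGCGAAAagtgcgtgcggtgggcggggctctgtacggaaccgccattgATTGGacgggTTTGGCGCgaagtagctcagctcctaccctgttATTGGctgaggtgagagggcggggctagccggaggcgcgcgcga
RRM2 (chr12:24708134-24708283, plus strand): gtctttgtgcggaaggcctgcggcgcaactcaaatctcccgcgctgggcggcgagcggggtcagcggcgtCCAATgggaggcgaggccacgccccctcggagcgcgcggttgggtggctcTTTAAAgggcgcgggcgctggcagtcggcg
CCNB1 (chr13:100786457-100786606, minus strand): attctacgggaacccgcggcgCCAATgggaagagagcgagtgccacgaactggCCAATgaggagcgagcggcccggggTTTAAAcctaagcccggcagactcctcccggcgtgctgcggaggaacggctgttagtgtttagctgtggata
BUB1 (chr2:127831830-127831979, minus strand): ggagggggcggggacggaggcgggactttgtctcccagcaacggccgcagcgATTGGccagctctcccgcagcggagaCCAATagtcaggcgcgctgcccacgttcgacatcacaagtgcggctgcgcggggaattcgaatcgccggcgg
CENPE (chr3:135212443-135212592, plus strand): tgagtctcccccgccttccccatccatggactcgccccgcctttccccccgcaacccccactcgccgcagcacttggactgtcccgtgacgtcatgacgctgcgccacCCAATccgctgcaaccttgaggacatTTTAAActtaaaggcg
KIF11 (chr19:37376262-37376411, plus strand): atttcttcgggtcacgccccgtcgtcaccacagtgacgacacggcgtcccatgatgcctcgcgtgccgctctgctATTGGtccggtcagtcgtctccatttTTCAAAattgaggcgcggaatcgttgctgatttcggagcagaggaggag
TOP2A (chr11:99024160-99024309, minus strand): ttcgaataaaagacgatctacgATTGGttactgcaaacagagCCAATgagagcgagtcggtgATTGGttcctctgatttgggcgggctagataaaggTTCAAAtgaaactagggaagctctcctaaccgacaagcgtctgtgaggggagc

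A gene was counted if any of its promoters held a match. An E2F match was held by 8 of 18 replication genes (44.4%) and 1 of 14 mitosis genes (7.14%), CDK1. The share was 4.50% of the 9316 tested genes with a promoter and 2.12% of all 27025 genes with one. CCAAT was held by 11 of 18 replication genes (61.1%) and 13 of 14 mitosis genes (92.9%), beside 44.0% of tested genes and 41.1% of all genes. A CHR match was held by 7 of 18 (38.9%) and 13 of 14 (92.9%), beside 22.4% and 30.6%. CCAAT and CHR stood together for 12 of the 14 mitosis genes and 5 of the 18 replication genes. The exceptions among mitosis genes were BIRC5, which had no CCAAT, and BUB1, which held neither TTTGAA nor TTTAAA on either strand. Other letters, such as the TTCGAA in the BUB1 window, were not searched, so a CHR of another form could have been missed. In MCM6, E2F matches began at positions -110, -106 and -47 and CCAAT matches at -57 and -14, where position 1 is the first transcribed base. In CCNB1, CCAAT matches began at -99 and -67, ahead of a CHR match at -42. In KIF11 a CCAAT match at -45 and a CHR match at -19 stood close together. RRM2 held CCAAT at -50 and CHR letters at 1, and CENPE held them at -12 and 15. Set beside the calls, an E2F match was found in 3 of 15 genes that were higher, 1 of 5 that were lower and 5 of 12 that did not pass, and a CHR match in 11, 2 and 7 of the same genes. These matches are letters in a window and were not tested as binding sites.

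**Figure D3:**
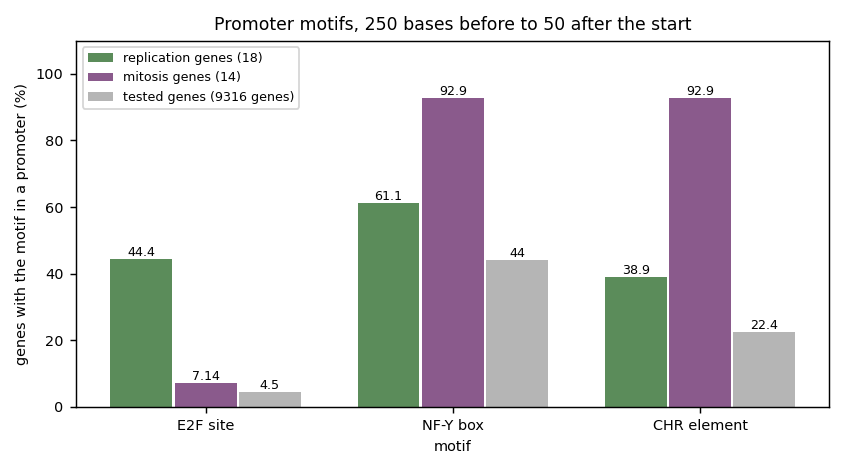
Share of genes, in percent, with each motif in a RefSeq promoter, for 18 replication genes, 14 mitosis genes and the 9316 tested genes with a promoter. Bars for the E2F site are highest for replication genes (44.4%), and those for the NF-Y box and the CHR element are highest for mitosis genes (both 92.9%).

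Among the replication genes, those of the MCM2 to MCM7 helicase, the ring that unwinds DNA at the fork, had small log2 fold changes, and 1 of the 6 passed the test. Of all genes tested, 27.4% were higher and 27.7% lower, shares that also stand beside the counts of calls in the groups that follow. MCM7 stood at 219, 197 and 195 CPM in the control libraries and at 178, 169.6 and 173 CPM in the JAG1 libraries. Every JAG1 library was below every control library, with a log2 fold change of -0.23 (± 0.06 SE, adjusted p = 0.00580 by edgeR's quasi-likelihood test). For the other members the log2 fold changes and their 95% intervals were -0.12 (-0.24 to -0.0046) for MCM2, -0.0029 (-0.10 to 0.10) for MCM3 and -0.12 (-0.24 to 0.011) for MCM4. They were -0.04 (-0.14 to 0.07) for MCM5 and -0.09 (-0.20 to 0.03) for MCM6, at levels of 179.5 ± 4.04 and 251 ± 4.67 CPM in control (mean ± SD, n = 3) and of 175 ± 3.70 and 236 ± 10.5 CPM in JAG1 libraries. MCM2 gained a call as lower with upper-quartile scaling (0.0370) and without control replicate 1 (0.0477), and MCM4 without control replicate 1 (0.0107). All 6 estimates lay below 0, although that of MCM3 turned to 0.01 when libraries were scaled by their size alone. The 6 genes summed to 1472 to 1511 CPM in control and to 1391 to 1409 CPM in JAG1 libraries, a ratio of 0.937. MCM7 lies opposite COPS6 at its 3′ end, and since the sources used here do not say whether counting used strand, reads of the pair cannot be told apart.

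Of the 5 factors that load and start the helicase, 2 rose and 3 did not pass. CDT1, which brings the MCM ring to origins, stood at 235, 227 and 228 CPM in control and 291, 269 and 291 CPM in JAG1 libraries, with no overlap between the groups. Its log2 fold change was 0.30 (± 0.05 SE, adjusted p = 0.000440). CDC45, which joins the loaded ring to make the active helicase, stood at 30.02, 27.5 and 25.9 CPM and rose to 35.5, 32.4 and 35.7 CPM, a log2 fold change of 0.31 (± 0.08 SE, adjusted p = 0.00695). Its JAG1 libraries all lay above the control libraries as well. CDC6, the partner of CDT1 in loading, had 70.2 ± 2.67 CPM in control and 70.6 ± 0.722 CPM in JAG1 libraries (mean ± SD, n = 3) and a 95% interval of -0.12 to 0.14 on the log2 scale. GINS1 and GINS2, subunits of the GINS complex that completes the helicase, had log2 fold changes of 0.08 (-0.20 to 0.36) and 0.04 (-0.08 to 0.15). The libraries of the groups overlapped for these 3 genes. The 3′ ends of CDT1 and GINS2 overlap other annotated genes, so their counts are uncertain as well. GSE1, opposite GINS2, held 4394, 3835 and 4008 reads in control and 4569, 3008 and 3598 in JAG1 libraries. GINS2 held nearly the same, 4381, 3814 and 3978 reads in control and 4503, 2989 and 3535 in JAG1 libraries. Its level and its small change can thus not be credited to GINS2 rather than GSE1.

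Of the synthesis machinery, 3 of 4 genes were higher in JAG1 libraries. PCNA, the sliding clamp, stood at 58.2, 79.1 and 80.5 CPM in control and 94.7, 106 and 98.5 CPM in JAG1 libraries. All JAG1 libraries lay above the control libraries, among which replicate 1 was far below the others. The log2 fold change was 0.46 (± 0.11 SE, adjusted p = 0.00388), and 0.32 without control replicate 1 (adjusted p = 0.000629). POLE, the catalytic subunit of the polymerase of the leading strand, was the least abundant gene of the set, at 5.63, 4.78 and 5.39 CPM in control and 7.78, 7.16 and 8.26 CPM in JAG1 libraries. It rose by 0.55 on the log2 scale (± 0.13 SE, adjusted p = 0.00366), again without overlap. RFC4, a subunit of the loader that opens PCNA, stood at 12.2, 10.6 and 11.6 CPM and 13.2, 14.7 and 14.03 CPM, with a log2 fold change of 0.28 (± 0.10 SE, adjusted p = 0.0325). Its call was lost without control replicates 2 or 3 and without JAG1 replicates 2 or 3 (adjusted p of 0.0558 to 0.122), and with DESeq2 (0.0924) and upper-quartile scaling (0.0516). POLA1, the catalytic subunit of the polymerase that makes the first stretch of each new strand, had 57.3 ± 0.404 and 52.6 ± 2.24 CPM (mean ± SD, n = 3), a log2 fold change of -0.12 (95% interval -0.26 to 0.015) that did not pass. PCNA has pseudogene copies, and RFC4 lies opposite EIF4A2 at its 3′ end, so both counts are uncertain to that extent.

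Of the 4 genes of nucleotide supply, 2 were higher and 1 was lower in JAG1 libraries. RRM2, the small subunit of ribonucleotide reductase, which makes the deoxynucleotides for S phase, stood at 60.00, 60.8 and 63.5 CPM in the control libraries and at 121, 119 and 124 CPM in the JAG1 libraries. The groups were far apart, with a fold change of 1.98 and a log2 fold change of 0.98 (± 0.06 SE, adjusted p = 7.19e-08). RRM1, the large subunit of the same enzyme, stood at 193 ± 18.4 CPM in control and 182 ± 3.15 CPM in JAG1 libraries (mean ± SD, n = 3). Its log2 fold change of -0.08 (95% interval -0.23 to 0.07) did not pass and its libraries overlapped, and the difference between the subunits was not itself tested. Without control replicate 1, the lowest control library, RRM1 was called lower at -0.16 (adjusted p = 0.0232). TK1, the thymidine kinase of the salvage route, stood at 63.3, 68.2 and 63.2 CPM in control and 90.8, 86.1 and 101 CPM in JAG1 libraries, a log2 fold change of 0.51 (± 0.07 SE, adjusted p = 9.91e-05). TYMS, thymidylate synthase of the route that makes thymidylate anew, went the other way, from 48.7, 47.5 and 53.6 CPM to 42.8, 45.3 and 41.5 CPM. Its JAG1 libraries all lay below the control libraries, with a log2 fold change of -0.21 (± 0.07 SE, adjusted p = 0.0275). The call on TYMS was lost without control replicate 3, JAG1 replicate 1 or JAG1 replicate 3 (adjusted p of 0.0825 to 0.102). A pseudogene row, TYMS-PS, held 103 to 134 reads a library, and TK1 overlaps another annotated gene on the opposite strand.

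Of the regulators of entry into S phase, the E2F factors and cyclin E2 were higher and cyclin E1 did not pass. E2F2, an activating E2F factor, stood at 7.51, 9.72 and 6.75 CPM in control and 17.1, 16.3 and 16.6 CPM in JAG1 libraries. This was the largest log2 fold change of the set, 1.07 (± 0.13 SE, adjusted p = 3.31e-05), or 2.09-fold, at a low level. E2F1, the other activating factor listed, stood at 99.4, 95.3 and 88.98 CPM and 118, 124 and 118 CPM, a log2 fold change of 0.34 (± 0.06 SE, adjusted p = 0.000484). Neither factor had overlapping groups. CCNE2, cyclin E2, an activator of CDK2, stood at 38.96, 45.6 and 49.6 CPM in control and 54.2, 53.1 and 58.5 CPM in JAG1 libraries, a log2 fold change of 0.30 (± 0.09 SE, adjusted p = 0.0130). Without JAG1 replicate 3 its adjusted p was 0.0596. CCNE1, cyclin E1, stood at 17.1, 18.3 and 20.7 CPM and 16.6, 17.3 and 19.1 CPM, so that the groups overlapped, and its log2 fold change was -0.08 (95% interval -0.30 to 0.13, adjusted p = 0.492). CCNE2 lies opposite INTS8 at its 3′ end, and INTS8 held 868, 927 and 1053 reads in control and 996, 726 and 1009 in JAG1 libraries. CCNE2 held similar numbers, 789, 850 and 949 reads in control and 1087, 771 and 963 in JAG1 libraries. Its level and call are uncertain to that extent.

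**Figure D4:**
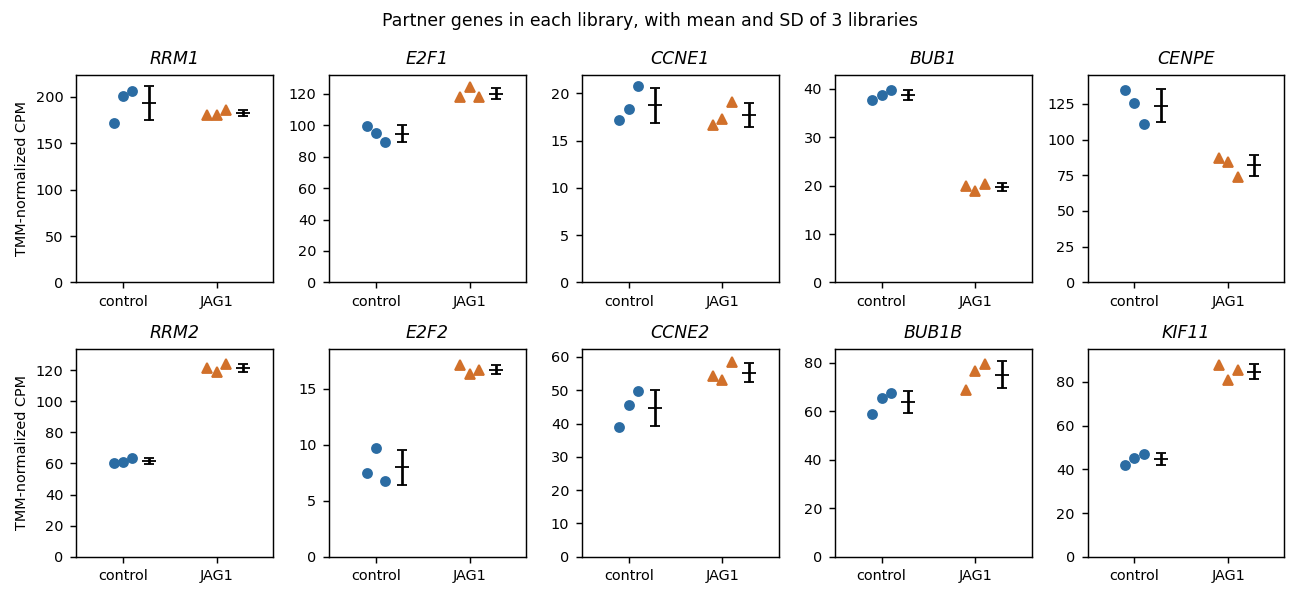
TMM-normalized CPM in each control (circles) and JAG1 (triangles) library for 5 pairs of related genes, with the mean and SD of 3 libraries as bars beside the points and axes that start at 0. RRM2 and E2F2 differ by about 2-fold where RRM1 overlaps and E2F1 differs by less, CCNE2 is apart where CCNE1 overlaps, and BUB1 and CENPE are lower in JAG1 libraries where BUB1B and KIF11 are higher.

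Among the mitosis genes, 3 of the 5 that encode cyclins, CDK1 and FOXM1 rose. CDK1, the kinase that drives entry into mitosis, stood at 422, 402 and 406 CPM in control and 472, 535 and 485 CPM in JAG1 libraries, a log2 fold change of 0.28 (± 0.06 SE, adjusted p = 0.00143). CCNB1, cyclin B1, its main partner, stood at 76.3, 75.7 and 72.7 CPM and 86.8, 89.5 and 98.4 CPM, a log2 fold change of 0.29 (± 0.06 SE, adjusted p = 0.00261). CCNB2, cyclin B2, stood at 31.5, 30.01 and 31.2 CPM and 38.9, 39.2 and 41.9 CPM, a log2 fold change of 0.37 (± 0.07 SE, adjusted p = 0.000888). For all 3 genes the JAG1 libraries lay above the control libraries. CCNA2, cyclin A2, which works in S phase and early mitosis, had 349 ± 14.2 CPM in control and 379 ± 6.18 CPM in JAG1 libraries (mean ± SD, n = 3), a log2 fold change of 0.12 (adjusted p = 0.0548) that passed with library size alone (0.0288) and without control replicate 1 (0.0212). FOXM1, a factor that activates genes of late G2 and mitosis, had 119, 119 and 117 CPM and 108, 103 and 113 CPM, all JAG1 libraries being below the control libraries. Its log2 fold change of -0.14 (95% interval -0.26 to -0.015, adjusted p = 0.0547) did not pass, and did with upper-quartile scaling (0.0279), with the deposited log2 values (0.0429) and without JAG1 replicate 3 (0.0492). CCNB1 and CCNB2 have pseudogene copies, and CCNA2 and FOXM1 overlap other genes at their 3′ ends. EXOSC9, opposite CCNA2, held 5213, 4512 and 4236 reads in control and 3370, 2540 and 2615 in JAG1 libraries. CCNA2 held 7391, 6408 and 6461 reads in control and 7481, 5597 and 6263 in JAG1 libraries. The part of EXOSC9 reads in the count of CCNA2 was not tested.

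The 3 mitotic kinases rose and survivin did not pass. AURKA, which works at centrosomes and spindle poles, stood at 144, 154 and 147 CPM in control and 217, 208 and 224 CPM in JAG1 libraries, a log2 fold change of 0.54 (± 0.05 SE, adjusted p = 5.88e-06). AURKB, the kinase of the chromosomal passenger complex, stood at 15.7, 17.9 and 20.4 CPM and 27.96, 27.7 and 29.4 CPM, a log2 fold change of 0.66 (± 0.10 SE, adjusted p = 0.000190), or 1.58-fold. Both kinases had no overlap between groups. PLK1, which acts from mitotic entry to cytokinesis, stood at 495, 472 and 447 CPM and 508, 554 and 503 CPM, close enough that the highest control and lowest JAG1 libraries nearly met. Its log2 fold change was 0.15 (± 0.06 SE, adjusted p = 0.0477), and the call was lost with DESeq2 (0.0580), with upper-quartile scaling (0.111), with the deposited log2 values (0.0644) and without any library but control replicate 1 (adjusted p of 0.0553 to 0.157). BIRC5, survivin, a partner of AURKB in the passenger complex and the most abundant gene of the set, had 1011 ± 14.5 CPM in control and 1081 ± 2.06 CPM in JAG1 libraries (mean ± SD, n = 3). The JAG1 libraries lay above the control libraries, but the log2 fold change of 0.10 (adjusted p = 0.0804) did not pass, and did with library size alone (0.0365).

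Genes of the spindle checkpoint moved in opposite directions. BUB1, a checkpoint kinase of kinetochores, stood at 37.6, 38.8 and 39.8 CPM in the control libraries and at 19.9, 18.9 and 20.4 CPM in the JAG1 libraries. It fell 1.96-fold, a log2 fold change of -0.97 (± 0.07 SE, adjusted p = 7.81e-07), the largest fall of the set, with groups far apart. BUB1B, or BUBR1, which holds the anaphase-promoting complex in check, stood at 58.8, 65.4 and 67.6 CPM and 68.9, 76.7 and 79.6 CPM, a log2 fold change of 0.23 (± 0.08 SE, adjusted p = 0.0241). Its call was lost without control replicates 1 or 2 and without JAG1 replicates 2 or 3 (adjusted p of 0.0525 to 0.100). CDC20, which activates the anaphase-promoting complex, had 255 ± 4.53 CPM and 271 ± 12.4 CPM (mean ± SD, n = 3), a log2 fold change of 0.09 (95% interval -0.02 to 0.20), with groups that overlapped. Its 3′ end lies opposite ELOVL1, which held 5020, 4484 and 4422 reads in control and 4948, 3773 and 4218 in JAG1 libraries. CDC20 held 5262, 4671 and 4882 reads in control and 5159, 4037 and 4600 in JAG1 libraries, so its count is uncertain to that extent.

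The motors and kinetochore genes were likewise mixed. CENPE, a kinesin that carries chromosomes to the spindle equator, stood at 134, 126 and 111 CPM in control and 87.4, 84.5 and 73.8 CPM in JAG1 libraries. It fell 1.51-fold, a log2 fold change of -0.59 (± 0.08 SE, adjusted p = 0.000104), without overlap. KIF20A, a kinesin of the central spindle in cytokinesis, stood at 193, 201 and 224 CPM and 176, 174 and 172 CPM, a log2 fold change of -0.24 (± 0.06 SE, adjusted p = 0.00561). Its 3′ end lies opposite CDC23, whose row held 3788, 3609 and 4146 reads in control and 3418, 2468 and 2765 in JAG1 libraries. KIF20A held nearly the same, 3909, 3735 and 4278 reads in control and 3526, 2535 and 2835 in JAG1 libraries. The level and the call can thus not be credited to KIF20A rather than CDC23. KIF11, the kinesin that pushes spindle poles apart, stood at 41.8, 44.99 and 47.1 CPM in control and 87.8, 80.8 and 85.3 CPM in JAG1 libraries, all the latter above the former. It rose 1.90-fold, a log2 fold change of 0.93 (± 0.07 SE, adjusted p = 5.87e-07). CENPF, a large kinetochore protein, had 171 ± 9.64 CPM and 155 ± 10.8 CPM (mean ± SD, n = 3), a log2 fold change of -0.14 (adjusted p = 0.0806) that did not pass. It was called lower with upper-quartile scaling (0.0425), with a replicate block (0.0473), without control replicate 3 (0.0399) and without JAG1 replicate 1 (0.0473).

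KIF11 is the only gene of the set on chromosome 19, and none lies on chromosome 15. On chromosome 19, 313 of the 422 genes tested were higher and 31 lower (median log2 fold change 0.61), and on chromosome 15, 346 of 459 were lower and 32 higher (median -0.53). KIF11 lay 0.32 above the median of its chromosome on the log2 scale. The medians of the other chromosomes with at least 20 tested genes ran from -0.12 to 0.05, with rises and falls on each. On chromosome 12, which holds RRM2, 125 of 404 genes were higher and 95 lower, and on chromosome 4 (E2F2) 208 and 189 of 744. On chromosome 2 (BUB1) 228 of 927 were higher and 252 lower, and on chromosome 3 (CENPE) 157 and 139 of 558. Chromosome Y, which holds none of the set, had 7 tested genes, of which 4 were higher (DDX3Y, EIF2S3Y, KDM5D and UTY, each by at least 0.98 on the log2 scale) and 3 were lower. Without the genes of chromosomes 15 and 19, 17 of 40 genes of the set were higher and 6 lower, or 57.5% called. Of all genes tested, these chromosomes included, 55.1% were called, 27.4% higher and 27.7% lower. The part of the chromosome-wide difference in the level of KIF11 was not tested.

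**Figure D5:**
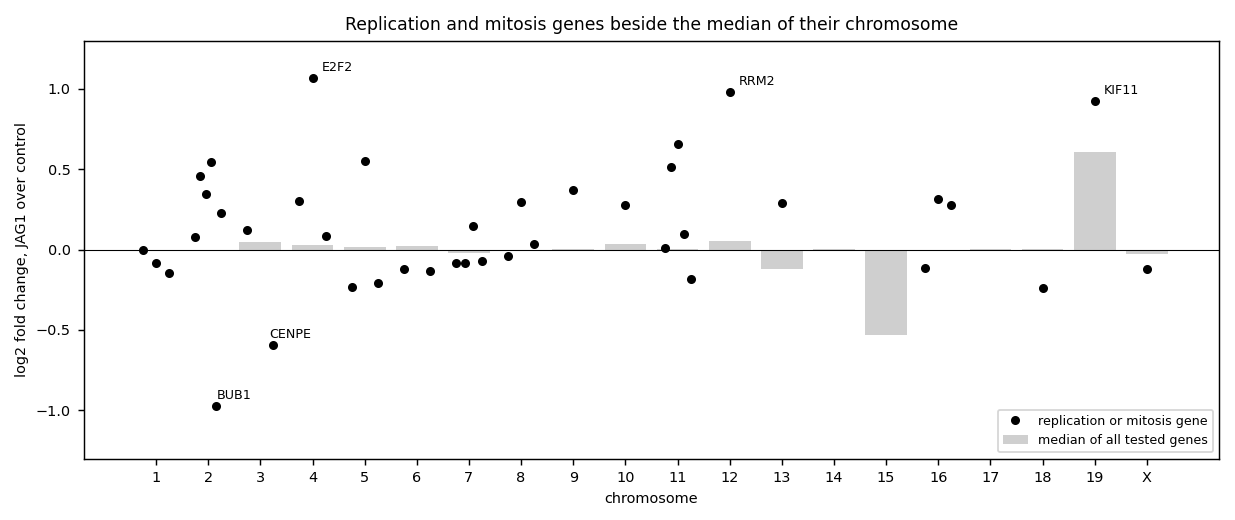
Log2 fold change of each replication or mitosis gene (points), by chromosome, beside the median of all tested genes on that chromosome (grey bars, chromosomes with at least 20 tested genes). The bars stand out on chromosome 19 (0.61), where KIF11 lies at 0.93, and on chromosome 15 (-0.53), which holds none of the 41 genes.

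Of the genes of chromosome structure and proliferation, TOP2A was lower and MKI67 did not pass. TOP2A, the topoisomerase that untangles sister DNA, stood at 489, 493 and 469 CPM in control and 450.2, 410.3 and 416 CPM in JAG1 libraries, a log2 fold change of -0.18 (± 0.05 SE, adjusted p = 0.0106). Its JAG1 libraries all lay below the control libraries, and the call was lost without control replicate 2 (0.0545) and JAG1 replicate 3 (0.0502). MKI67, the Ki-67 antigen, a protein of cycling cells widely used as a marker of proliferation, stood at 58.02, 55.6 and 52.2 CPM and 57.2, 53.3 and 47.5 CPM. The groups overlapped, and the log2 fold change was -0.07 (95% interval -0.24 to 0.10, adjusted p = 0.481), an interval that leaves room for a small change either way.

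Further genes of the same pathways were read from lists written for this comparison. Of 56 other replication genes, 17 were higher, 12 lower and 27 did not pass, and the median log2 difference was 0.04 (all genes 0.0039). That is 51.8% called, beside 55.1% of all genes tested. RFC2, a clamp loader subunit, was higher at 29.6 ± 0.284 and 60.5 ± 1.03 CPM in control and JAG1 libraries (mean ± SD, n = 3), a log2 fold change of 1.03 (± 0.06 SE, adjusted p = 1.19e-07). HELLS, a chromatin remodeller, rose by 0.88 (adjusted p = 1.06e-07) and RPA3, a subunit of the single-strand binding protein, by 0.78 (adjusted p = 0.0394) on the log2 scale. Control replicate 1 was low for RPA3, whose log2 fold change was 0.43 without it (adjusted p = 0.00980), and the call was lost with DESeq2 (0.154) and without control replicate 2, JAG1 replicate 2 or JAG1 replicate 3 (adjusted p of 0.0524 to 0.139). RRM2B, the reductase subunit induced by p53, had a log2 fold change of -1.09 (adjusted p = 8.93e-06), GINS3 of -0.63 (adjusted p = 0.000143) and RFC3 of -0.50 (adjusted p = 2.31e-05). HELLS lies on chromosome 19 and RRM2B on chromosome 15. Without these chromosomes 14 of 52 genes were higher and 11 lower, or 48.1% called, beside the 55.1% of all genes tested, which includes these chromosomes.

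Of 77 other mitosis genes, 15 were higher, 21 lower and 41 did not pass, and the median log2 difference was -0.08. That is 46.8% called, beside 55.1% of all genes tested, of which 27.4% were higher and 27.7% lower. ECT2, which activates RHOA for cytokinesis, rose by 0.87 (± 0.09 SE, adjusted p = 6.43e-06), NEK2, a centrosome kinase, by 0.80 (adjusted p = 0.00183) and CDCA5, or sororin, by 0.55 (adjusted p = 0.000186) on the log2 scale. TPX2, the spindle assembly factor that activates AURKA, stood at 118 ± 1.95 CPM in control and 55.2 ± 2.38 CPM in JAG1 libraries (mean ± SD, n = 3). Its log2 fold change of -1.10 (± 0.06 SE, adjusted p = 4.20e-08) was opposite in sign to that of AURKA. GTSE1 had a log2 fold change of -0.89 (adjusted p = 2.42e-05) and ESPL1, or separase, of -0.85 (adjusted p = 3.49e-06), and both lie on chromosome 15. CDCA5 lies on chromosome 19. Without the 2 chromosomes 12 of 70 genes were higher and 17 lower, or 41.4% called, beside the 55.1% of all genes tested, which includes the 2 chromosomes.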

How the data were processed

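RNA of 3 control and 3 JAG1 libraries was measured by QuantSeq 3′ sequencing, and the groups were taken from the sample titles. The authors deposited 1 table per library with the raw read count of each gene and the log2 of a normalized count. The submitters' processing notes name Bowtie2, bedtools, edgeR and the genome GRCm38 or mm10, with no versions. The annotation, the normalization behind the deposited log2 values and the strand used in counting are not given in the sources used here.

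The deposited read counts were analysed in R 4.3.3 with edgeR 4.0.16. Genes were filtered with filterByExpr (minimum count 10), which left 11712 of 23282 rows, scaled by TMM and compared by the quasi-likelihood test with group as the only term. The study's general statistics statement names Student's test with the mean and SEM and does not mention sequencing counts, so the count test of the tool in the processing notes was used. Adjusted p (Benjamini-Hochberg over all tested genes) under 0.05 counted as a call. Standard errors and 95% intervals were derived from the F statistic. Libraries held 14341634 to 20489062 counts, and the limit of 3 counts reflects counting error alone, because reads carry no molecular identifiers. In simulated data with 200 of the genes changed, on which the fit was checked, 89.9% of the genes changed 2-fold were recovered among 11588 and 7.77% of calls were false. In the real data 6458 genes were called, and the median size of the log2 change in the set was 0.23. The simulated shares therefore do not describe the calls reported here.

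The 41 genes, the lists of other replication and mitosis genes and the marker lists were chosen with earlier results of these data known. Every gene of the set was named, with values per library for called genes up to the 3 largest changes of each role group and for MKI67, PCNA, E2F1, E2F2, FOXM1, CCNE1 and CCNE2, and from the other lists the 3 largest rises and falls among called genes. The windows and the pairs of genes plotted were chosen after values were seen. The listed genes KNL1, SGO1 and SGO2A were found under older symbols through RefSeq synonyms. Sequences and promoters came from RefSeq for GRCm38.p6, the build that the notes name. Overlap of other genes was looked for over the last 500 annotated bases.

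Alternatives were DESeq2 1.42.0, library size alone, upper-quartile scaling, no filter, a mean of at least 10 counts, a replicate block, limma-voom (limma 3.58.1), the deposited log2 values with limma, leaving out each library, and calls of at least 1.5-fold. Counts without chromosomes 15 and 19 were added after seeing the data.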

Additional observations from a re-analysis of the deposited data

How the results depend on the processing

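Over 14 alternatives the 41 genes gave 574 log2 fold changes, of which 529 kept their direction and side of the threshold, 24 lost a call, 14 gained one and 7 reversed, and 25 genes changed under no alternative. The calls lost were those of RFC4, TYMS, CCNE2, PLK1, BUB1B and TOP2A, and those gained MCM2, MCM4, RRM1, CCNA2, FOXM1, BIRC5 and CENPF. The replicate block added only that of CENPF. The reversals were of genes near 0: MCM3 at 0.012 with library size alone and between -0.020 and 0.016 with a library left out (above 0 without control replicate 2 or JAG1 replicate 2), CDC6 at -0.018 with upper-quartile scaling, -0.00033 with the deposited log2 values and between -0.027 and 0.033 with a library left out (below 0 without control replicate 3), and MKI67 between -0.13 and 0.0019, above 0 without JAG1 replicate 3. Their adjusted p lay between 0.748 and 0.996. With a fold limit of 1.5, 3106 genes passed (1395 higher, 1711 lower), among them 6 of the set (4 higher, 2 lower), 2 replication genes (2 higher, 0 lower), 4 mitosis genes (2 higher, 2 lower), 7 other replication genes (5 higher, 2 lower) and 6 other mitosis genes (2 higher, 4 lower). Leaving out each library gave 19 to 27 called genes of the set (14 to 18 higher, 5 to 9 lower), 9 to 15 replication genes and 9 to 12 mitosis genes, and the replication genes called lower numbered 1 to 5, with 5 without control replicate 1 and 1 without control replicate 3, JAG1 replicate 1 or JAG1 replicate 3. With upper-quartile scaling 9 genes of the set, 6 of them mitosis genes, were lower. The cause of these moves was not tested. With a replicate block 25 genes of the set passed (18 higher, 7 lower). Same-numbered libraries deviated together with correlations of 0.148, 0.061 and 0.119, and each library correlated best with its own number. With the block 6711 of all genes passed, beside 6458 without it. The sources used here do not say whether the numbers pair the libraries, so the main fit treated them as unpaired, and a pairing was not tested. With 3 libraries a group, depth and spread limit what can be seen for low genes such as POLE and GINS1.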
